A study of Mus musculus with 15 samples.

Results

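The genes described here are 41 DNA repair genes, taken by symbol from a fixed list and measured by RNA sequencing in malignant B-cells of mouse spleen. All 41 were found once in each of the deposited expression tables, which list 16470 genes for cells kept in DMSO, the solvent, and 16428 genes for cells kept in ibrutinib. By the step each gene is known for, 15 belong to homologous recombination, 6 to end joining, 4 to mismatch repair, 8 to nucleotide excision repair, 5 to base excision and single-strand break repair and 3 to Fanconi repair. Levels are read counts scaled to library size by the authors (normalized CPM), and all 41 genes were above 0 in each of the 15 libraries.

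Both genotypes were C57Bl/6 mice that carry the Eμ-TCL1 transgene, in which an immunoglobulin enhancer drives the human oncogene TCL1 in B-cells, a model of chronic lymphocytic leukemia. The Eμ-TCL1;p53R172H/+ mice (p53R172H/+ in what follows) also had 1 allele of Trp53 with the R172H change, a missense mutation in the DNA-binding part of p53, in every cell. Cells released mechanically from leukemic spleens were cultured for 24 h with DMSO or with 5 μM ibrutinib, an inhibitor of the B-cell receptor kinase BTK. In DMSO there were 3 Eμ-TCL1 libraries (replicates 2, 3 and 4) and 5 p53R172H/+ libraries (replicates 1 to 5), and in ibrutinib 3 Eμ-TCL1 libraries (replicates 1, 3 and 4) and 4 p53R172H/+ libraries (replicates 1, 3, 4 and 5). The age of the mice is not given in the sources used here, and nothing states that every library came from its own mouse, so the p-values measure the spread between these libraries.

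Repair genes divide by the lesion they serve. Double-strand breaks are resected by the MRE11-RAD50-NBN complex and copied back from the sister chromatid by homologous recombination, where BRCA1 with BARD1, PALB2 and BRCA2 act, or they are rejoined directly by end joining, where the Ku proteins XRCC5 and XRCC6 hold the ends and DNA-PKcs, XRCC4 and ligase IV join them. Recombination needs a sister chromatid and its genes are largely expressed in dividing cells, whereas end joining works throughout the cell cycle and also completes V(D)J recombination in lymphocytes. Mismatch repair corrects replication errors, nucleotide excision repair removes bulky adducts and ultraviolet lesions, base excision repair removes damaged bases, and the Fanconi proteins unhook crosslinks between strands. p53 acts downstream of the damage kinases and represses many genes of the division cycle indirectly, through the p21 protein and the repressor complexes that act at E2F, CCAAT and related promoter elements.

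The stretches just before the start sites of some of the genes compared below are shown to let their promoters be compared. They come from the RefSeq windows of 250 bases before to 50 bases after a start on GRCm38.p6, cut to the bases outside annotated exons. Brca1, Brca2, Bard1, Rad54l and Fanca are among the genes with lower estimates in p53R172H/+, and Ercc2 among the excision repair genes with higher estimates. Capitals mark an E2F-like element (TTTCCCGC, TTTCGCGC or TTTGGCGC) in Bard1 and Brca2 and a CCAAT box in the other 4, on either strand. The genes shown were picked together with the element marked, so that each carries one is not a result. Ercc1, with higher estimates in p53R172H/+, and Fanci, with lower ones, had neither element in their windows.
Brca1, chr11:101551956-101552148, minus strand: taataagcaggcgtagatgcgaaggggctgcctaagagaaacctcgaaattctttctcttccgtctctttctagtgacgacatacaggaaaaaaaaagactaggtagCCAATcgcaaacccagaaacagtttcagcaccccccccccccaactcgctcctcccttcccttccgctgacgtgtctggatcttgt
Bard1, chr1:71103147-71103222, minus strand: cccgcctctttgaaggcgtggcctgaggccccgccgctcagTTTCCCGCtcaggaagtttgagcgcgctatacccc
Brca2, chr5:150522371-150522620, plus strand: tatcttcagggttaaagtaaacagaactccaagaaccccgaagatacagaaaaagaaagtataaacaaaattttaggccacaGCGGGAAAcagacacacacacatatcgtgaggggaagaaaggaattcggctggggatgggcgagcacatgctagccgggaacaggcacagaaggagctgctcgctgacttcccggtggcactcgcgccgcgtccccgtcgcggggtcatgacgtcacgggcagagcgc
Rad54l, chr4:116123691-116123839, minus strand: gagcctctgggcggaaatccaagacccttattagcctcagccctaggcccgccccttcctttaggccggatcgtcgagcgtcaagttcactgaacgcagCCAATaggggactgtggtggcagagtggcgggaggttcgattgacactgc
Fanca, chr8:123318577-123318826, minus strand: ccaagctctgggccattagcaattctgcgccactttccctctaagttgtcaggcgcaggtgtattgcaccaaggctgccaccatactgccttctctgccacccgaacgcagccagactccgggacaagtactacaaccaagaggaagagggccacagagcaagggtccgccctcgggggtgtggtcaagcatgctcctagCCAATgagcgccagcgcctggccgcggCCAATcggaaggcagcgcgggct
Ercc2, chr7:19381767-19382009, plus strand: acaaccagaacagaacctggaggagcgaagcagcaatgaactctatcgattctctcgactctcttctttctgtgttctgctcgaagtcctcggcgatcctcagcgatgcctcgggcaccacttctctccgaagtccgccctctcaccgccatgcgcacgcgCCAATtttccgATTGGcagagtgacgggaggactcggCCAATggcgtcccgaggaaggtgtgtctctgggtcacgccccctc

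Windows were found for 33 of the 41 genes. An E2F-like element was present in 6 of these 33 genes (Brca2, Bard1, Rad51c, Xrcc6, Msh3 and Msh6), and in 1.84% of all 32851 windows. A gene was counted if any of its windows matched, so shares of genes and of windows are unlike measures. A CCAAT box was present in 19 of the 33 genes, among them Fanca with 2 copies and Ercc2 with 3 in the stretches shown, and in 37.4% of all windows. By pathway, the CCAAT box was in 7 of 11 recombination genes and 5 of 7 excision genes with windows. The E2F-like element was in 3 of these 11 and 0 of these 7. The GC box GGGCGG occurred in 26 of the 33 genes and in 35.7% of all windows, and its reverse complement can overlap the end of TTTCCCGC. The elements TTTGAA and TTCGAA, of the kind found in promoters of mitotic genes, occurred in 2 of the 33 genes (Bard1 and Rad51b) and in 19.2% of all windows. Of the 37 windows of the members, 7 had an E2F-like element, 21 a CCAAT box, 28 the GC box and 2 TTTGAA or TTCGAA. The matches are matches of letters, and binding was not measured.

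The libraries differed in more than genotype. Eμ-TCL1 replicate 2 in DMSO and Eμ-TCL1 replicate 1 in ibrutinib had summed levels of 12 myeloid markers of 29770 and 21170, against 33.4 to 1204 in the other 13 libraries, and of 9 erythroid markers of 17910 and 15490, against 9.6 to 264.1. The 12 B-cell markers summed to 87.0 to 333 in p53R172H/+ replicates 1 and 2 in DMSO and replicate 1 in ibrutinib, where the 12 T-cell markers summed to 2393 to 4189, so the labelled cell type was a minor part of the transcripts there. Eμ-TCL1 replicate 2 in DMSO and replicate 1 in ibrutinib also had low B-cell sums, 632.1 and 509.2. The other Eμ-TCL1 libraries had 2902 to 6566. In ibrutinib the 4 p53R172H/+ libraries had T-cell sums of 826.1 to 2393 and the 3 Eμ-TCL1 libraries 165.9 to 557.6. Among the former, replicate 3 had a T-cell sum of 1617 beside a B-cell sum of 601.9. Trp53, which is listed as 1 value for both alleles and so does not check the mutation, was 26.0 to 52.3 in Eμ-TCL1 and 52.1 to 67.0 in p53R172H/+ in DMSO. The Y-linked gene Ddx3y was 0 in every Eμ-TCL1 library and above 10 in 3 of 5 and 3 of 4 p53R172H/+ libraries, so sex and genotype are in part confounded. Read depth cannot be recovered from these values. Fewer cells of a type and less RNA per cell cannot be told apart in bulk RNA.

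No repair gene passed the threshold for a genotype difference in either table. Of the 41 genes, 0 had an adjusted p under 0.05 in limma in DMSO, where 2 of 16470 genes did (0.0121%), and 0 in ibrutinib, where 0 of 16428 genes did (0%). At an unadjusted p under 0.05, 4 members were lower in p53R172H/+ in DMSO (9.76% of members, 4.65% of all genes) and 3 were higher (7.32% of members, 3.52% of all genes). In ibrutinib 4 were lower (9.76%, against 6.32% of all genes) and 4 were higher (9.76%, against 5.69% of all genes). The genotypes did not overlap in 0 members with lower and 2 with higher levels in p53R172H/+ in DMSO, where the shares over all genes were 2.93% and 3.52%, and in 4 and 4 members in ibrutinib, where they were 5.97% and 6.68%. With 41 genes these shares differ from those of all genes by few genes each.

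By pathway, the estimates below the threshold had these directions. Homologous recombination genes were lower in p53R172H/+ for 11 of 15 in both tables, with a median log2 change of -0.24 in DMSO and -0.16 in ibrutinib, and Fanconi genes were lower for 3 of 3 in both, with medians of -1.03 and -0.92. Nucleotide excision repair genes were higher for 8 of 8 in DMSO and 7 of 8 in ibrutinib, with medians of 0.50 and 0.40. End joining genes had medians of 0.29 and -0.02, mismatch repair genes of 0.09 and -0.24, and base excision genes of 0.03 and -0.12, beside 0.04 and -0.05 over all genes tested. The plot of changes by pathway shows the error of each gene next to these directions. Without Eμ-TCL1 replicate 2 and p53R172H/+ replicates 1 and 2 in DMSO, 10 of 15 recombination genes were lower with a median of -0.35, 6 of 8 excision genes were higher with a median of 0.28, and the Fanconi median was -0.15. Without replicate 1 of both genotypes in ibrutinib, 10 of 15 recombination genes were lower, 7 of 8 excision genes were higher with a median of 0.22, and 2 of 3 Fanconi genes were lower with a median of -0.21.

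**Figure D1:**
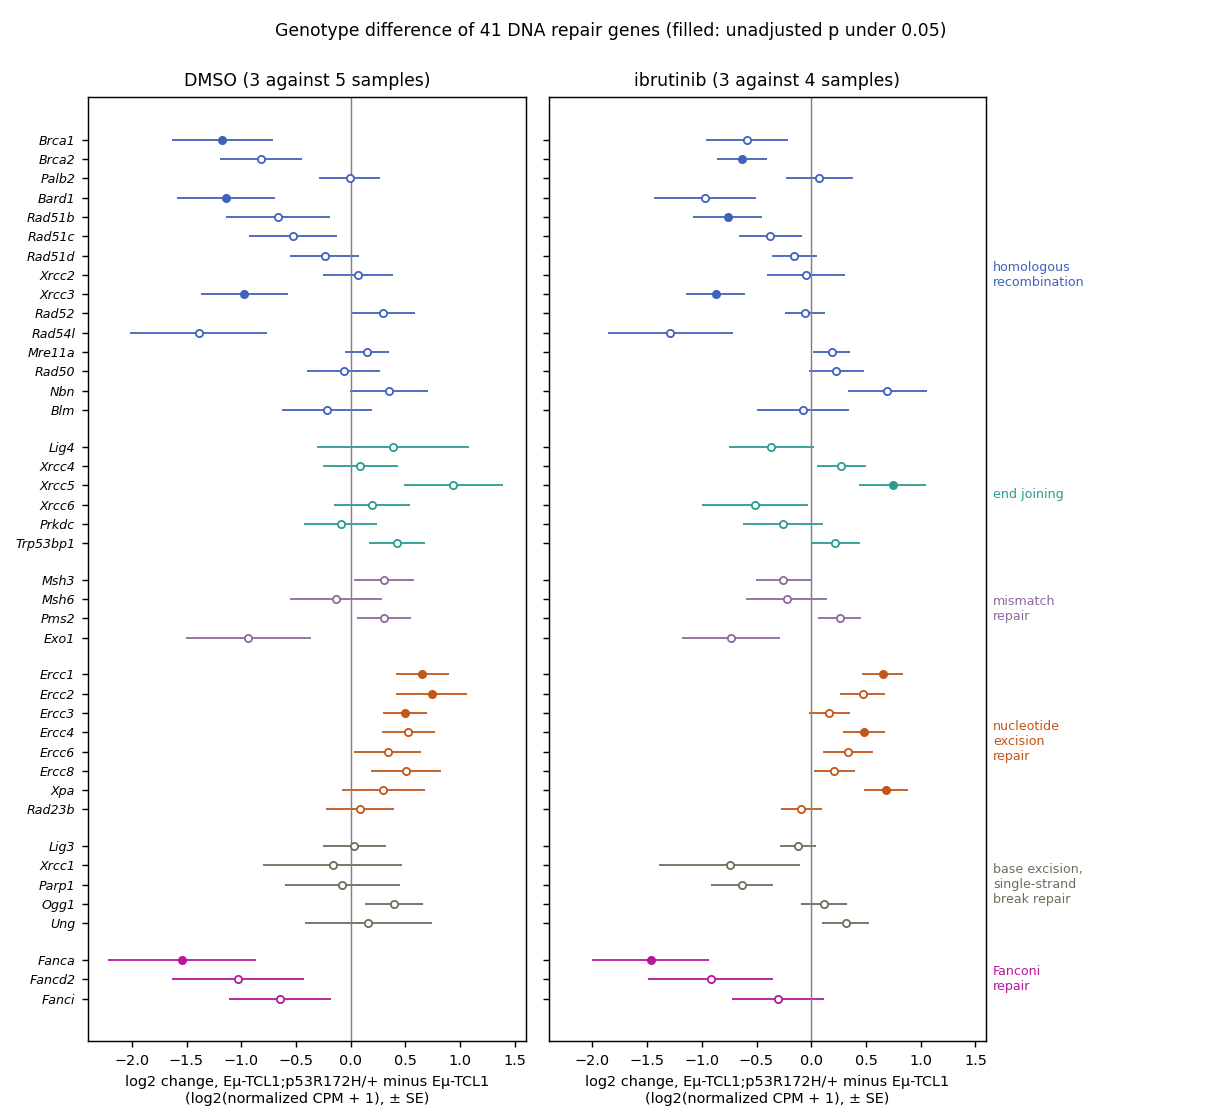
Log2 change between genotypes, p53R172H/+ minus Eμ-TCL1, on the log2(normalized CPM + 1) scale for the 41 repair genes grouped by pathway, in DMSO on the left and ibrutinib on the right. Points are limma estimates, bars are ± SE and filled points have an unadjusted p under 0.05. The excision repair genes lie mostly right of 0 and the BRCA and Fanconi genes left of it, with bars that are wide beside the distances.

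In homologous recombination the lower levels concerned the BRCA genes and part of the genes that act with them. Brca1, whose product directs resected breaks to recombination (ENSMUSG00000017146, chromosome 11 of GRCm38 from 101488764 to 101551955), was 43.7, 14.9 and 66.4 in the 3 Eμ-TCL1 libraries in DMSO and 14.1, 11.7, 17.3, 23.2 and 11.8 in the 5 p53R172H/+ libraries. Eμ-TCL1 replicate 3 lay within the p53R172H/+ range and the other 2 lay well above it. The Eμ-TCL1 mean was 41.7 ± 25.8 (SD, n = 3) and the p53R172H/+ mean 15.6 ± 4.81 (SD, n = 5). The log2 change was -1.17 (SE 0.47, limma adjusted p = 0.589, exact permutation p = 0.0536), and leaving out Eμ-TCL1 replicate 3 or 4 gave -1.77 or -0.73. In ibrutinib Brca1 was 29.3, 9.1 and 23.5 in Eμ-TCL1 and 12.3, 13.8, 10.2 and 12.1 in p53R172H/+, so the Eμ-TCL1 libraries lay on both sides of a narrow p53R172H/+ range. The change there was -0.59 (SE 0.38, adjusted p = 0.554), and it was -0.27 without Eμ-TCL1 replicate 1.

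Bard1, which encodes the obligate partner of BRCA1 (chromosome 1, 71027498 to 71103146), was 25.9, 12.5 and 23.0 in Eμ-TCL1 in DMSO and 6.2, 4.9, 9.3, 19.4 and 6.9 in p53R172H/+. Only p53R172H/+ replicate 4 reached the Eμ-TCL1 range, and the log2 change was -1.14 (SE 0.45, adjusted p = 0.580). In ibrutinib Bard1 was 23.2, 5.7 and 6.2 in Eμ-TCL1 and 3.6, 4.3, 5.5 and 4.3 in p53R172H/+, which did not overlap (exact permutation p = 0.0286, the smallest that 3 against 4 libraries allow). Without Eμ-TCL1 replicate 1, which had the high myeloid and erythroid sums, the change of -0.97 became -0.37.

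Brca2, which encodes a large tumor suppressor that acts after resection (chromosome 5, 150522630 to 150570329), was 41.8, 29.9 and 34.9 in Eμ-TCL1 in DMSO and 15.1, 11.6, 35.5, 28.3 and 15.7 in p53R172H/+. The lowest 2 values were those of p53R172H/+ replicates 1 and 2, the libraries rich in T-cell transcripts, while replicate 3 lay among the Eμ-TCL1 libraries. The log2 change was -0.82 (SE 0.38, adjusted p = 0.623), and -0.35 without these 2 libraries and Eμ-TCL1 replicate 2. In ibrutinib it was 23.3, 18.5 and 12.9 against 10, 10.9, 11.8 and 11.8, without overlap, a change of -0.63 (SE 0.23, adjusted p = 0.353) with an exact permutation p of 0.0286. Palb2, the bridge between BRCA1 and BRCA2, ranged from 5.1 to 9.8 over the DMSO libraries and from 3.3 to 8.0 over the ibrutinib libraries, with means of 7.83 and 7.54 in DMSO and 5.4 and 5.5 in ibrutinib for Eμ-TCL1 and p53R172H/+.

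**Figure D2:**
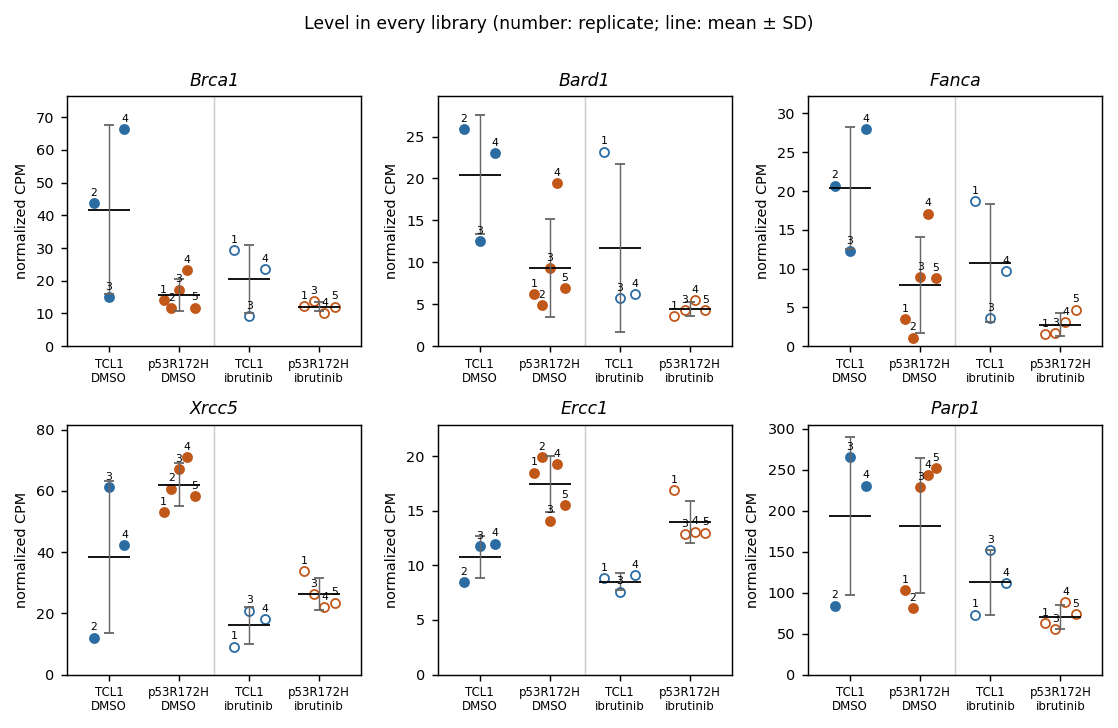
Normalized CPM of 6 repair genes in every library, by genotype and treatment, with the replicate number at each point and the mean ± SD as lines. Filled points are DMSO and open points ibrutinib. Brca1, Bard1 and Fanca have their high values in Eμ-TCL1 replicates 2 and 4 in DMSO and 1 in ibrutinib, Ercc1 separates the genotypes in both tables, and Parp1 in DMSO is lowest in the 3 libraries with few B-cell transcripts, Eμ-TCL1 replicate 2 and p53R172H/+ replicates 1 and 2.

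Xrcc3 and Rad51b, which act in recombination after resection, were among the least expressed members. Xrcc3 (chromosome 12, 111803192 to 111813873) was 2.9, 6.7 and 4.5 in Eμ-TCL1 in DMSO and 0.7, 1.0, 2.5, 2.5 and 3.1 in p53R172H/+, a log2 change of -0.97 (SE 0.40, adjusted p = 0.593) with an exact permutation p of 0.0357. In ibrutinib Xrcc3 was 2.2, 3.2 and 1.2 against 0.4, 0.7, 1.0 and 0.7, so the genotypes did not overlap, and the change was -0.87 (SE 0.27, adjusted p = 0.316). Rad51b was 5.5, 2.1 and 4.3 against 1.1, 0.5, 4.0, 3.6 and 2.3 in DMSO, and 2.8, 0.5 and 1.2 against 0.3, 0.2, 0.5 and 0.5 in ibrutinib. Its changes were -0.67 (SE 0.47, adjusted p = 0.656) and -0.76 (SE 0.31, adjusted p = 0.402), the first became -0.42 without p53R172H/+ replicate 2 and 0.06 without both p53R172H/+ replicates 1 and 2 and Eμ-TCL1 replicate 2, and the second became -0.41 without Eμ-TCL1 replicate 1. Values this near the rounding step of 0.1 are coarse, and on the log2(value + 1) scale their changes are understated. Rad51c ranged from 2.2 to 8.4 in DMSO and 1.8 to 4.9 in ibrutinib, Rad51d from 18.0 to 35.8 and from 18.6 to 28.5, and Xrcc2 from 5.3 to 11.6 and from 2.5 to 8.1, and in all 3 the genotypes overlapped.

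Rad54l encodes a DNA-dependent motor protein that acts in strand invasion. It was 19.8, 5.9 and 23.3 in Eμ-TCL1 in DMSO and 3.3, 2.0, 4.9, 15.8 and 4.1 in p53R172H/+, and in ibrutinib 17.6, 2.4 and 3.2 against 2.1, 1.6, 1.6 and 1.3. High values thus stood in Eμ-TCL1 replicates 2 and 4 and p53R172H/+ replicate 4 in DMSO and in Eμ-TCL1 replicate 1 in ibrutinib, where the genotypes did not overlap (exact permutation p = 0.0286). Of the exonic bases of Rad54l, 15.4% are shared with Lrrc41 on the opposite strand, and whether counting used strand is not given in the sources used here. Blm, the helicase that dissolves joined chromatids, ranged from 13.0 to 34.3 in DMSO and from 6.1 to 22.8 in ibrutinib, and in each table its highest value was in the Eμ-TCL1 library with the high myeloid sum.

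Genes for break ends and annealing had estimates on both sides of 0. Mre11a, the nuclease, was 33.9 to 52.3 in Eμ-TCL1 and 43.3 to 52.8 in p53R172H/+ in DMSO. Rad50, which tethers the ends, was 51.2 to 72.5 and 34.5 to 94.6, and Nbn, the third subunit, was 14.9 to 23.7 and 13.4 to 37.5. In ibrutinib Nbn was 13.6, 4.9 and 7.4 in Eμ-TCL1 and 19, 15, 10.4 and 11.2 in p53R172H/+, higher on average and overlapping (exact permutation p = 0.171). Rad52, which anneals single strands, was 11.8 to 20.4 in Eμ-TCL1 and 12.3 to 23.3 in p53R172H/+ in DMSO. Among the recombination genes, the 4 with a higher estimate in p53R172H/+ were Mre11a, Nbn, Rad52 and Xrcc2 in DMSO and Mre11a, Nbn, Rad50 and Palb2 in ibrutinib, and none of them was past the threshold.

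Among the end joining genes, 5 of 6 had a higher estimate in p53R172H/+ in DMSO (median log2 change 0.29) and 3 of 6 in ibrutinib. The count in DMSO was 3 of 6, with a median of 0.017, without Eμ-TCL1 replicate 2, and in ibrutinib it was 2 of 6 without Eμ-TCL1 replicate 1 and 5 of 6 without Eμ-TCL1 replicate 4. Of the Ku genes only Xrcc5 kept its sign when single libraries were left out. Xrcc5, which encodes Ku80 (ENSMUSG00000026187, chromosome 1, 72307421 to 72394952), was 12.1, 61.2 and 42.2 in Eμ-TCL1 in DMSO and 53.2, 60.8, 67.2, 71.0 and 58.2 in p53R172H/+. Eμ-TCL1 replicate 2 stood far below the other 7 libraries, and replicate 3 lay within the p53R172H/+ range. The log2 change was 0.94 (SE 0.45, adjusted p = 0.633) and became 0.28 without that replicate 2. In ibrutinib Xrcc5 was 9.1, 20.9 and 18.1 in Eμ-TCL1 and 33.7, 26.3, 22.1 and 23.5 in p53R172H/+, which did not overlap, a change of 0.74 (SE 0.30, adjusted p = 0.40, exact permutation p = 0.0286) that became 0.40 without Eμ-TCL1 replicate 1. These p53R172H/+ values ranked in the order of the T-cell sums of their libraries, 2393, 1617, 826.1 and 999.1, and the part of T-cells was not tested.

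Xrcc6, which encodes Ku70, was 23.3, 50.8 and 73.4 in Eμ-TCL1 in DMSO and 55.9, 58.6, 40.8, 57.4 and 44.7 in p53R172H/+, so the p53R172H/+ libraries lay inside the Eμ-TCL1 range. Ibrutinib gave 20.7, 49.9 and 96.6 against 34.0, 26.1, 45.9 and 26.6, again with the Eμ-TCL1 libraries on both sides. The log2 changes of 0.19 (SE 0.35, adjusted p = 0.855) and -0.52 (SE 0.49, adjusted p = 0.649) became -0.26 when Eμ-TCL1 replicate 2 was left out of the first and 0.0023 when Eμ-TCL1 replicate 4 was left out of the second. Prkdc, which encodes the catalytic subunit DNA-PKcs, was 125.7, 173.6 and 141.3 in Eμ-TCL1 and 199.8, 167.1, 131.7, 152.9 and 70.4 in p53R172H/+ in DMSO, and 86.0, 206.6 and 115.7 against 156.8, 113.7, 100.8 and 70.7 in ibrutinib. Its changes of -0.09 (SE 0.34, adjusted p = 0.936) and -0.26 (SE 0.36, adjusted p = 0.764) were smaller than their errors.

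Lig4, the ligase of this pathway, ranged from 8.1 to 77.6 in DMSO, with the highest value in p53R172H/+ replicate 3, and from 5.7 to 19.4 in ibrutinib. Its scaffold Xrcc4 ranged from 9.9 to 25.5 and from 10.3 to 18.9. Trp53bp1, which encodes 53BP1, the factor that shields ends from resection and opposes BRCA1, was 49.3, 93.8 and 79.4 in Eμ-TCL1 and 82.4, 83.8, 112.5, 91.1 and 116.4 in p53R172H/+ in DMSO (exact permutation p = 0.161). In ibrutinib it was 40.4 to 73.8 and 59.3 to 74.4. The genotypes overlapped in all 3 genes.

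None of the 4 mismatch repair genes had an unadjusted p under 0.05 in either table, and their genotypes overlapped. Msh6, a subunit of the mismatch sensor, ranged from 49.3 to 144.4 in Eμ-TCL1 and from 65.6 to 133.8 in p53R172H/+ in DMSO, and from 42.4 to 128.4 and 51.0 to 85.1 in ibrutinib. Msh3, its alternative partner for larger loops, ranged from 31.5 to 38.3 and 24.9 to 54.4 in DMSO, and Pms2, the nicking subunit, from 20.3 to 40.3 and 30.9 to 41.9. Exo1, an exonuclease that also resects double-strand breaks, was 9.4, 3.9 and 16.6 in Eμ-TCL1 and 2.5, 1.7, 4.5, 10.6 and 4.4 in p53R172H/+ in DMSO, and 7.9, 1.3 and 2.1 against 1.3, 1.6, 1.3 and 1.4 in ibrutinib. Its high libraries were those of Rad54l, and the exact permutation p was 0.214 in DMSO and 0.143 in ibrutinib. Pms2 has paralogous and same-strand overlapping genes, so its reads may be shared.

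Nucleotide excision repair was the group with most estimates higher in p53R172H/+, none past the threshold. Ercc1, the partner of the XPF nuclease (ENSMUSG00000003549, chromosome 7, 19344778 to 19356524), was 8.5, 11.8 and 12 in Eμ-TCL1 in DMSO and 18.5, 19.9, 14.1, 19.3 and 15.5 in p53R172H/+. The ibrutinib values were 8.8, 7.6 and 9.1 against 16.9, 12.9, 13.1 and 13.0. In both tables every p53R172H/+ library lay above every Eμ-TCL1 library, and Ercc1 was the sole member without overlap in both. In DMSO the Eμ-TCL1 mean was 10.8 ± 1.97 (SD, n = 3), below the p53R172H/+ mean of 17.5 ± 2.53 (SD, n = 5). The log2 changes were 0.65 (SE 0.24, adjusted p = 0.558) in DMSO and 0.65 (SE 0.19, adjusted p = 0.310) in ibrutinib, with exact permutation p = 0.0357 and p = 0.0286, and they were 0.41 in DMSO without p53R172H/+ replicates 1 and 2 and Eμ-TCL1 replicate 2 and 0.59 in ibrutinib without replicate 1 of both genotypes.

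Ercc4, which encodes XPF itself (chromosome 16, 13109684 to 13150617), was 22.4, 33.4 and 29.8 in Eμ-TCL1 in DMSO and 50.8, 50.7, 32.6, 35.8 and 38.5 in p53R172H/+, a log2 change of 0.53 (SE 0.24, adjusted p = 0.623), which was 0.17 without p53R172H/+ replicates 1 and 2 and Eμ-TCL1 replicate 2. In ibrutinib it was 20.8, 34.2 and 25.4 against 39.2, 38.2, 33.8 and 37.5, a change of 0.48 (SE 0.19, adjusted p = 0.394) that became 0.32 without Eμ-TCL1 replicate 1. A single pair of libraries overlapped by a small margin in each table, and the 2 highest values in DMSO were those of the T-cell-rich p53R172H/+ replicates 1 and 2. Xpa, which checks the lesion before incision, was 12.1, 14.4 and 12.6 against 19.8, 32.4, 12.3, 10 and 13.9 in DMSO, a change of 0.30 (SE 0.38, adjusted p = 0.786) carried by the same 2 libraries, since it was 0.06 without p53R172H/+ replicate 2 and -0.11 without both. In ibrutinib Xpa was 8.6, 9.6 and 12.6 in Eμ-TCL1 and 18.8, 18.3, 14.4 and 16.4 in p53R172H/+, without overlap, a change of 0.68 (SE 0.20, adjusted p = 0.313, exact permutation p = 0.0286). The T-cell sums of these p53R172H/+ libraries were 2393, 1617, 826.1 and 999.1, above the Eμ-TCL1 sums of 165.9 to 557.6. Within p53R172H/+, Xpa and Ercc4 ranked in the order of these sums, while Ercc1, Ercc2 and Ercc3 did not. The part of T-cells in the ibrutinib differences was not tested.

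Ercc2 and Ercc3 encode the helicases XPD and XPB of the transcription factor TFIIH, which open the DNA around the lesion. Ercc2 was 14.4, 38.0 and 33.6 in Eμ-TCL1 in DMSO and 40.8, 37.8, 42.9, 50.9 and 54.1 in p53R172H/+, with p53R172H/+ replicate 2 just under the highest Eμ-TCL1 value. Its log2 change of 0.74 (SE 0.32, adjusted p = 0.609, exact permutation p = 0.0357) became 0.32 without Eμ-TCL1 replicate 2, and 42.7% of its exonic bases are shared with other genes, among them Klc3 on the opposite strand. The ibrutinib values were 16.0, 21.2 and 22.7 against 30.4, 21.5, 29.1 and 31.0, a change of 0.47 (SE 0.20, adjusted p = 0.422). Ercc3 was 29.0, 37.0 and 35.4 against 41.2, 54.5, 49.3, 40.4 and 55.9 in DMSO, without overlap, a change of 0.50 (SE 0.20, adjusted p = 0.592, exact permutation p = 0.0357). In ibrutinib Ercc3 was 25.3, 23.2 and 19.8 against 29.9, 28.4, 23.3 and 21.4, with overlapping genotypes and a change of 0.16 (SE 0.19, adjusted p = 0.702).

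The genes that find the lesion were less distinct. Ercc6 and Ercc8 encode CSB and CSA, which serve stalled RNA polymerase. Ercc6 was 43.0 to 81.2 in Eμ-TCL1 and 61.1 to 127.0 in p53R172H/+ in DMSO and 36.3 to 61.6 and 50.8 to 76.9 in ibrutinib. Ercc8 was 9.2 to 16.8 and 13.0 to 28.1 in DMSO and 7.6 to 9.4 and 9.1 to 10.8 in ibrutinib. Rad23b, the partner of the damage sensor XPC, was 76.8 to 174.1 and 105.1 to 185.5 in DMSO and 68.5 to 110.1 and 76.5 to 85.1 in ibrutinib. The genotypes overlapped in all 3. Eμ-TCL1 replicate 2 held the lowest value of Ercc1, Ercc2, Ercc3, Ercc4, Ercc6, Ercc8 and Rad23b in DMSO, 7 of the 8 excision genes, beside its myeloid sum of 29770, and the part of those cells in the result was not tested. Without this library 7 of the 8 genes were still higher in p53R172H/+, with a median of 0.29. How many of all genes were lowest in this library was not counted.

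In base excision and single-strand break repair, Parp1, the poly(ADP-ribose) polymerase that senses nicks (ENSMUSG00000026496, chromosome 1, 180568924 to 180601254), was 84.0, 265.0 and 230.4 in Eμ-TCL1 in DMSO and 102.9, 81.2, 228.2, 243.7 and 251.7 in p53R172H/+. The libraries fell into a low and a high set of 3 and 5 that crossed genotype, and the 3 low ones were the 3 with B-cell sums of 321.7 to 632.1, where the other 5 had 3953 to 6566. The log2 change was -0.08 (SE 0.53, adjusted p = 0.97), and it was -0.59 without Eμ-TCL1 replicate 2 and 0.48 without p53R172H/+ replicates 1 and 2. In ibrutinib Parp1 was 73.2, 152.2 and 111.9 against 62.8, 55.0, 88.3 and 74.1, a change of -0.64 (SE 0.28, adjusted p = 0.427, exact permutation p = 0.143) that became -0.39 without Eμ-TCL1 replicate 3. The highest Parp1 values there, in Eμ-TCL1 replicates 3 and 4, stood beside the highest B-cell sums, 3782 and 2902. Xrcc1, the scaffold of the same step, was 20.9 to 29.4 in the same 3 low DMSO libraries and 63.6 to 110.8 in the other 5.

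Lig3, the ligase bound to XRCC1, ranged from 37.5 to 71.6 in DMSO and from 29.5 to 40.0 in ibrutinib, and 25.1% of its exonic bases are shared with Rffl on the opposite strand. Ogg1, the glycosylase for oxidized guanine, was 5.9, 9.2 and 8.0 in Eμ-TCL1 and 11.7, 9.9, 11.5, 7.8 and 11 in p53R172H/+ in DMSO (exact permutation p = 0.0714) and ranged from 6.5 to 9.4 in ibrutinib. Ung, the uracil glycosylase that also acts in class switching of B-cells, was 1.5, 8.7 and 13.4 against 5.7, 3.9, 8.5, 11 and 7.1 in DMSO. In ibrutinib Ung was 2.2, 3.3 and 2.8 in Eμ-TCL1 and 3.6, 3.6, 3.4 and 4.0 in p53R172H/+, which did not overlap by a margin of a single rounding step (exact permutation p = 0.0286).

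The Fanconi genes had the lowest pathway medians. Fanca, of the core complex (ENSMUSG00000032815, chromosome 8, 123268300 to 123318576), was 20.7, 12.3 and 28.0 in Eμ-TCL1 in DMSO and 3.5, 1.1, 8.9, 17.1 and 8.8 in p53R172H/+, where replicate 4 reached into the Eμ-TCL1 range and replicates 1 and 2 were lowest. The log2 change was -1.54 (SE 0.67, adjusted p = 0.610, exact permutation p = 0.0714) and was -0.75 without p53R172H/+ replicates 1 and 2. In ibrutinib Fanca was 18.7, 3.6 and 9.7 against 1.6, 1.7, 3.1 and 4.7, a change of -1.47 (SE 0.53, adjusted p = 0.352, exact permutation p = 0.0571) that became -0.97 without Eμ-TCL1 replicate 1. Of its exonic bases, 10.5% are shared with Zfp276 on the opposite strand.

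Fancd2 and Fanci encode the pair of proteins that the core complex marks with ubiquitin. Fancd2 was 28.3, 7.3 and 26.7 in Eμ-TCL1 and 5.1, 3.4, 11.4, 18.7 and 9.4 in p53R172H/+ in DMSO, and 20.1, 2.3 and 5.7 against 3.2, 2.9, 3.1 and 3.2 in ibrutinib. Fanci was 18.7, 6.6 and 19.4 against 7.2, 4.6, 9.1, 16.2 and 7.5 in DMSO, and 14.2, 4.3 and 4.4 against 4.5, 4.2, 5.1 and 7.1 in ibrutinib. Both genes were high in the same libraries, and in ibrutinib they were high in Eμ-TCL1 replicate 1 alone. Their exact permutation p-values lay between 0.143 and 0.657.

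Several recombination and Fanconi genes had their highest values in the same libraries. The same counts over all genes were not made, so those below do not show a trait particular to repair genes. In DMSO, Eμ-TCL1 replicates 2 and 4 and p53R172H/+ replicate 4 held the 3 highest values of 8 members (Brca1, Bard1, Rad51c, Rad54l, Exo1, Fanca, Fancd2 and Fanci). These were also the 3 libraries with the highest sums of 12 mitotic markers, 1762, 1362 and 667.1, where the other 5 had 177.3 to 518.8. p53R172H/+ replicates 1 and 2 held the 2 lowest values of 9 members (Brca2, Bard1, Rad51b, Xrcc2, Xrcc3, Rad54l, Exo1, Fanca and Fancd2). In ibrutinib, Eμ-TCL1 replicate 1 held the highest value of 12 members (Brca1, Brca2, Palb2, Bard1, Rad51b, Xrcc2, Rad54l, Blm, Exo1, Fanca, Fancd2 and Fanci) and the lowest of 16, among them Xrcc5, Xrcc6, Trp53bp1 and 6 excision genes, beside a mitotic sum of 1121 where the other 6 libraries had 83.5 to 532.9.

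The mitotic markers were themselves lower in p53R172H/+ for 12 of 12 genes in both tables, with a median log2 change of -1.67 in DMSO and -1.98 in ibrutinib, and 0 of them passed the adjusted threshold (lowest adjusted p = 0.401 and 0.191). The 12 replication markers had medians of -0.42 and -0.15. The B-cell markers had medians of -0.97 and -1.52, the T-cell markers of 0.92 and 2.14, and the myeloid markers of -2.73 and -2.07 and the 9 erythroid markers of -2.48 and -1.66. The share of dividing cells, of other spleen cells and of the genotype in the levels of Brca1, Fanca and their group was not tested. The map of pathways and markers sets these scores side by side for each library.

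**Figure D3:**
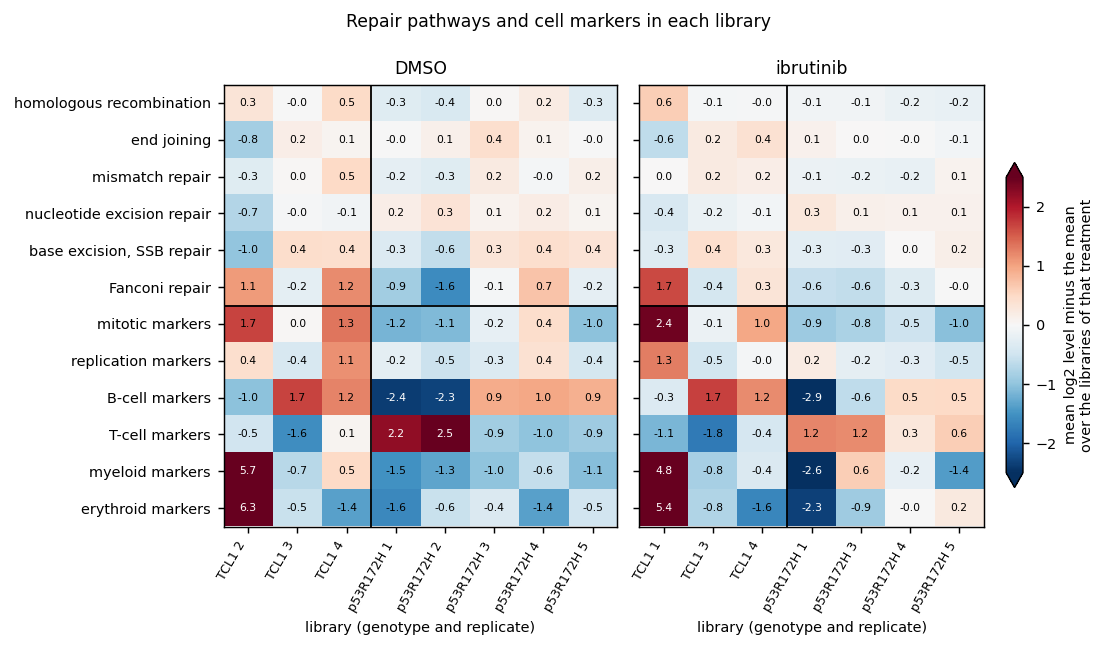
Mean log2(normalized CPM + 1) of each repair pathway (upper 6 rows) and marker list (lower 6 rows) in each library, minus the mean over the libraries of the same treatment, with DMSO left and ibrutinib right and the genotypes divided by the vertical line. Colours end at ± 2.5 and the numbers give the value. The Fanconi row is high where the mitotic row is high, and the excision row is lowest in the 2 libraries with high myeloid and erythroid rows.

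Ratios of 2 genes within a library do not depend on how the tables were scaled, so they can be set side by side across the treatments. Ercc1 over Ercc4, partners in 1 nuclease, was among the steadiest of the ratios computed, from 0.48 to 1.17 per kb of exon over 15 libraries, a 2.43-fold range beside 2.45-fold for Rad50 over Mre11a. Ercc2 over Ercc3 ranged from 0.34 to 0.99, and Fancd2 over Fanci from 0.33 to 1.10. Xrcc5 over Xrcc6, also partners, had medians of 1.01 in Eμ-TCL1 and 2.17 in p53R172H/+ in DMSO and of 0.73 and 1.64 in ibrutinib. Its range in Eμ-TCL1, 0.91 to 2.11 in DMSO, overlapped that of p53R172H/+, 1.67 to 2.89, and in ibrutinib 0.33 to 0.77 lay just below 0.84 to 1.77.

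Brca1 over Trp53bp1, genes whose products oppose each other at break ends, had medians of 1.39 in Eμ-TCL1 and 0.26 in p53R172H/+ in DMSO and of 0.66 and 0.30 in ibrutinib. The Eμ-TCL1 libraries ranged from 0.26 to 1.47 and from 0.205 to 1.20, so 1 of 3 in each table lay among or below the p53R172H/+ values, which ranged from 0.17 to 0.42 and from 0.28 to 0.34. Brca2 over Xrcc5, a recombination gene over an end joining gene, ranged from 0.09 to 0.65 in Eμ-TCL1 and from 0.04 to 0.10 in p53R172H/+ in DMSO. In ibrutinib it ranged from 0.13 to 0.48 and from 0.06 to 0.10, with no overlap. The highest ratios were those of the 2 libraries with high myeloid sums, and these pairs were chosen with the levels of the genes known.

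**Figure D4:**
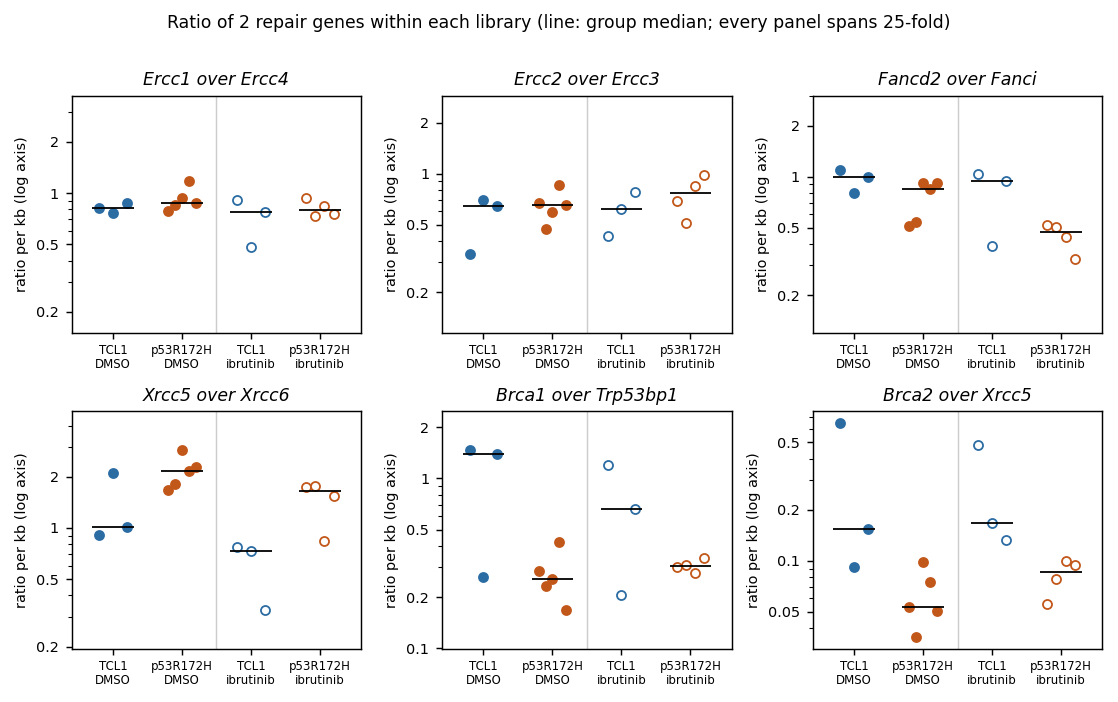
Ratio of the levels per kb of exon of 2 repair genes within each library, on log axes that all span 25-fold, for 4 groups, with lines at the group medians. The upper row and the lower left panel show partners in a complex and the other 2 panels show recombination over end joining genes, which spread most within Eμ-TCL1.

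Per kb of exon, the level of the members spanned a wide range. In Eμ-TCL1 in DMSO the group mean was highest for Parp1, at 36.5, followed by Msh6 at 25.1, Rad23b at 23.2 and Xrcc5 at 15.1, and lowest for Rad51b at 1.06, Palb2 at 1.07, Exo1 at 1.18 and Rad51c at 1.27. In p53R172H/+ in ibrutinib the highest were Msh6 at 14.9, Rad23b at 13.9 and Parp1 at 13.2 and the lowest Rad51b at 0.10, Exo1 at 0.17, Rad54l at 0.21 and Xrcc3 at 0.26. Most neighbours in this order do not differ beyond their spread. Of the 40 pairs of neighbours, 40 in Eμ-TCL1 and 37 in p53R172H/+ in DMSO, and 39 and 32 in ibrutinib, had means closer than the larger SD of the pair. The deposited values of the 41 genes summed to 1117 to 1867 per library in DMSO and 898.1 to 1314 in ibrutinib, but the tables were scaled separately, so levels were not compared between treatments.

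**Figure D5:**
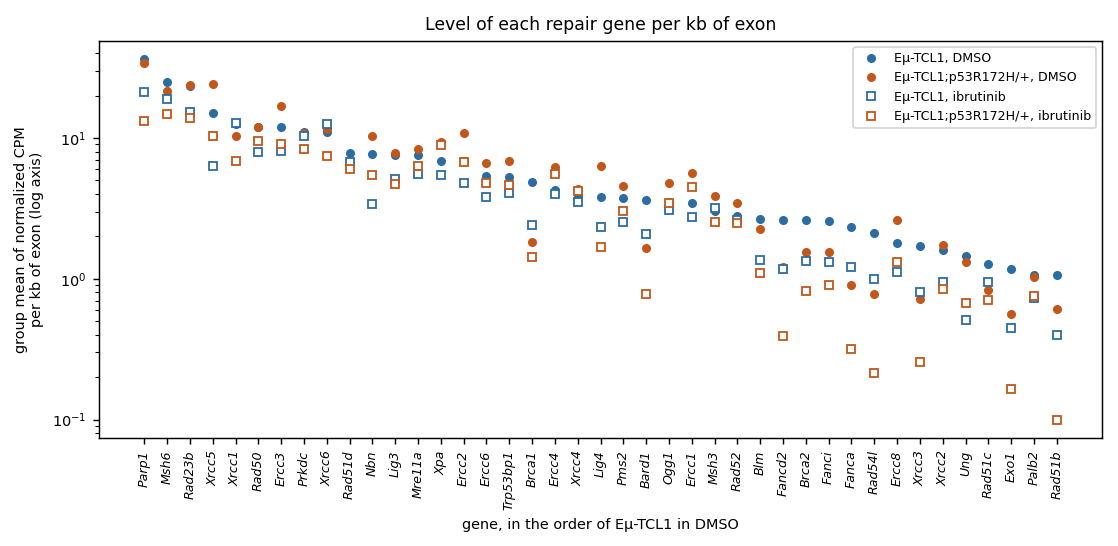
Group mean of normalized CPM per kb of exon for each of the 41 genes, on a log axis, in the order of Eμ-TCL1 in DMSO. Blue is Eμ-TCL1 and orange p53R172H/+, with filled circles for DMSO and open squares for ibrutinib. Parp1, Msh6 and Rad23b are high in all 4 groups, and the recombination and Fanconi genes on the right spread most between groups.

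Whether the genotype difference itself differed between ibrutinib and DMSO was tested by the interaction over all 15 libraries, in which the scaling of the tables cancels, for low levels only approximately because of the added 1. In limma 0 of the 15869 genes that the tables share passed the threshold (0%) and 83 (0.523%) had an unadjusted p under 0.05, and none of the latter was a member. That fit treats the libraries as independent. Deviations of same-numbered libraries from their group means correlated across treatments at 0.715 to 0.837, apart from p53R172H/+ replicate 3. Libraries of unlike number were not compared in this way, and the Eμ-TCL1 means include a library with high myeloid sums in each treatment. The correlations thus cannot show that the numbers pair libraries. With the replicate number as a block, 3 members (7.32%) and 4.97% of all genes were under 0.05. The block also dropped libraries without a match, replicate 2 of both genotypes in DMSO and Eμ-TCL1 replicate 1 in ibrutinib. Blocking and dropping cannot be told apart here. The absence of members in the main fit thus does not show equal differences. The interaction of the members ranged from -0.75 to 0.59 on the log2 scale, with a median of -0.001. It was 0.59 (SE 0.63) for Brca1, whose DMSO difference was the larger, and -0.71 (SE 0.62) for Xrcc6.

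The wider repair and damage signaling lists held 80 other genes. In DMSO 6 of them (7.5%) were lower and 4 (5%) higher at an unadjusted p under 0.05, beside 4.65% and 3.52% of all genes, and in ibrutinib 6 (7.5%) were lower and 5 (6.25%) higher, beside 6.32% and 5.69% of all genes, with none past the adjusted threshold. Chek2, a damage kinase, was lower in DMSO by a log2 change of -0.90 (SE 0.25, adjusted p = 0.446), and Brip1, a helicase that binds BRCA1, by -1.68 (SE 0.58, adjusted p = 0.545). Chek1, the kinase of stalled replication forks, and Rad54b, a relative of Rad54l, had the lowest p among lower genes in ibrutinib, with changes of -0.88 (SE 0.26) and -1.11 (SE 0.33) and an adjusted p of 0.313 for both. Gtf2h1, another TFIIH subunit, was higher in both tables, by 0.68 (SE 0.22, adjusted p = 0.514) in DMSO and 0.55 (SE 0.14, adjusted p = 0.255) in ibrutinib, without overlap in either. Mdc1, a scaffold at breaks, was higher in DMSO by 0.83 (SE 0.28, adjusted p = 0.545) and Tdg, a thymine glycosylase, in ibrutinib by 0.75 (SE 0.23, adjusted p = 0.319). By list, other excision genes were higher for 9 of 10 in DMSO and 7 of 10 in ibrutinib (medians 0.30 and 0.24), and other mismatch genes for 4 of 4 in both (0.26 and 0.19). Damage signaling genes were lower for 10 of 14 in both (-0.53 and -0.51), other recombination genes for 10 and 11 of 17 (-0.12 and -0.07), and other Fanconi genes for 6 of 10 in both (-0.23 and -0.04). Other base excision genes were higher for 11 and 10 of 16 (0.21 and 0.16), and other end joining genes for 8 and 3 of 9 (0.08 and -0.25). Of all genes, 46.7% were lower in DMSO and 54.4% in ibrutinib.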

How the data were processed

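RNA of 15 samples was sequenced by the authors from Illumina libraries. Per the labels and the study's methods, reads were aligned with TopHat2 2.0.12, sorted with SAMtools 0.1.19, counted per gene with HTSeq on GENCODE M2 (GRCm38), filtered for low values and scaled by edgeR. What they deposited as signal is CPM, adjusted by the authors with 1 factor per library, set separately for each treatment and rounded to 0.1. All 10 steps of 0.1 are in use, so whole reads could not be recovered, depth is unknown, no counting intervals are given and count tests were not run.

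On log2(value + 1), limma 3.58.1 under R 4.3.3 compared the genotypes in each treatment separately (eBayes with trend). P-values were adjusted by Benjamini-Hochberg over all genes, and the threshold was 0.05. The genotype by treatment interaction used genes in both tables. Single members were also compared by two-sided exact permutation tests of mean values over 56 (DMSO) and 35 (ibrutinib) arrangements, whose smallest p is 0.0179 and 0.0286. The fits were run on simulated data with independent normal noise, a spread no wider than that of the median gene, and planted changes larger than any member's estimate. That does not test them for smaller changes or for libraries of mixed cells. Groups came from sample titles. Coordinates and exon lengths came from GENCODE M21, promoter windows from RefSeq. Of the marker genes, Adgre1 was matched through its older symbol Emr1 and Ahsp was not matched.

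Values in every library are given for Brca1, Brca2, Parp1, Xrcc5, Xrcc6 and Prkdc and, in each pathway and table, for the members with the lowest unadjusted p under 0.05 (at most 3). Values of other members given per library (such as Bard1 in ibrutinib, Rad54l, Exo1, Fancd2, Fanci, Nbn, Trp53bp1, Ogg1 and Ung) were chosen after they were seen. Of the other repair genes, the 2 with the lowest p per direction and table are named. The members and all lists were chosen with earlier results of these data known. The alternatives tried were quantile normalization, quality weights for samples, a pseudocount of 0.1 or 5, a filter that keeps means of 5 or more, the replicate number as a block, each library left out, without the T-cell-rich p53R172H/+ libraries (replicates 1 and 2 in DMSO and 1 in ibrutinib), and without these and Eμ-TCL1 replicate 2 in DMSO. The block also dropped libraries without a match. For genotype these were p53R172H/+ replicates 1 and 5 in DMSO and 5 in ibrutinib. For the interaction they were replicate 2 of both genotypes in DMSO and Eμ-TCL1 replicate 1 in ibrutinib. Blocking and dropping cannot be told apart. Leaving out Eμ-TCL1 replicate 1 together with p53R172H/+ replicate 1 in ibrutinib was chosen after seeing the data. In ibrutinib p53R172H/+ replicate 3, with a T-cell sum of 1617, was kept in all of these settings except its own leave-out.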

Additional observations from a re-analysis of the deposited data

Results flagged for a closer look

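In groups of 4 or 5 libraries, a member was flagged where its highest or lowest library stood apart from the rest by Dixon's criterion at the 95% level, and 5 of 82 groups of values were flagged, where chance flags about 1 in 20. Of these, 3 concern p53R172H/+ replicate 4 in DMSO. Rad54l was 15.8 there and 2.0 to 4.9 in the other 4 libraries of the group, Rad51c was 7.3 against 2.2 to 3.0, and Rad52 was 12.3 against 21.2 to 23.3. In ibrutinib, Xrcc2 was 3.2 in p53R172H/+ replicate 4 against 4.7 to 4.9 in the other 3, and Ercc1 was 16.9 in p53R172H/+ replicate 1 against 12.9 to 13.1.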

How the results depend on the processing

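No member passed the adjusted threshold in any alternative of any comparison. The number of genes past it in DMSO, 2 of all tested, was 6 with a pseudocount of 5, 803 with sample quality weights, 0 with the replicate block, 1 without the T-cell-rich p53R172H/+ libraries (replicates 1 and 2 in DMSO, 1 in ibrutinib), 12 without the libraries in doubt (these and Eμ-TCL1 replicate 2 in DMSO) and 0 to 61 with a library left out, 61 being without Eμ-TCL1 replicate 2, 5 without p53R172H/+ replicate 4 and 0 without Eμ-TCL1 replicate 3. In ibrutinib it was 28 with sample quality weights and 0 to 24 with a library left out, 24 being without Eμ-TCL1 replicate 1 and 5 without p53R172H/+ replicate 5. The members with an unadjusted p under 0.05 in DMSO were 7 in all (17.1%, beside 8.17% of all genes). They were 4 with quantile normalization (9.76%, beside 8.34%), 16 with weights (39%, beside 25.2%) and 1 with the replicate block (2.44%, beside 5.76%). Without the T-cell-rich libraries there was 1 (2.44%, beside 11.2%), and without the libraries in doubt 3 (7.32%, beside 17.1%). With a library left out there were 0 to 9. The 0 was without p53R172H/+ replicate 2, beside 6.37% of all genes. Leaving out p53R172H/+ replicate 1 or Eμ-TCL1 replicate 2 gave 1 (2.44%, beside 6.39% and 8.82%). Leaving out p53R172H/+ replicate 5 or Eμ-TCL1 replicate 4 gave 2 (4.88%, beside 6.09% and 7.17%). The 9 was without p53R172H/+ replicate 4 or Eμ-TCL1 replicate 3 (22%, beside 9.35% and 10.6%). In ibrutinib the 8 (19.5%, beside 12% of all genes) were 1 with the block (2.44%, beside 9.08%) and 3 to 12 with a library left out. The 3 was without p53R172H/+ replicate 1 (7.32%, beside 9.74%), the library taken out as T-cell-rich. Leaving out p53R172H/+ replicate 3 gave 4 (9.76%, beside 7.5%) and leaving out p53R172H/+ replicate 5 gave 5 (12.2%, beside 9.85%). The 12 was without Eμ-TCL1 replicate 3 (29.3%, beside 10.2%). For the interaction the 0 became 1 with weights (2.44%, beside 7.2% of all genes) and 3 with the block (7.32%, beside 4.97%). It became 1 without the T-cell-rich libraries (2.44%, beside 7.22%) and 1 without the libraries in doubt (2.44%, beside 6.29%). When Eμ-TCL1 replicate 1 in ibrutinib was left out with the libraries in doubt it was 2 (4.88%, beside 8.94%). With a library left out it was 0 to 2, the 2 being without Eμ-TCL1 replicate 1 in ibrutinib (4.88%, beside 1.24%). The cause was not tested.

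Replicate numbers do not pair the genotypes. The deviations of same-numbered libraries correlated between genotypes at -0.166 to 0.246. Across treatments they correlated at 0.715 to 0.837, apart from p53R172H/+ replicate 3 at -0.104. Libraries of unlike number were not compared, so these correlations cannot show that the numbers pair libraries. Whether same-numbered libraries share a mouse is not given in the sources used here, and the interaction fit without the replicate block treats all 15 libraries as independent. Median log2 changes in DMSO ranged, with a library left out, from -0.19 to 0.21 over all members, -0.56 to -0.19 in homologous recombination, 0.017 to 0.52 in end joining, -0.29 to 0.24 in mismatch repair and -0.59 to 0.28 in base excision repair, and without the libraries in doubt the Fanconi median was -0.15. In ibrutinib, quantile normalization gave 0.019 over all members and -0.091 in mismatch repair, beside a shift of all genes from -0.047 to 0.0684. Weights gave -0.37 in mismatch repair and 0.25 in nucleotide excision repair, and without replicate 1 of both genotypes nucleotide excision repair was 0.22 and Fanconi repair -0.21. With a library left out, end joining ranged from -0.28 to 0.20, mismatch repair from -0.36 to 0.016 and Fanconi repair from -1.54 to -0.20.

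In DMSO the sign of Xrcc6 turned to -0.49 with weights and -0.37 without the libraries in doubt, of Prkdc to 0.042 with the block, of Parp1 to 0.48 without the T-cell-rich libraries, of Xpa to -0.11 without these and -0.16 without the libraries in doubt, and of Rad51b to 0.063 without them. With a library left out, Parp1 ranged from -0.59 to 0.23, Prkdc from -0.23 to 0.14 and Xrcc6 from -0.26 to 0.55 in DMSO, and Prkdc from -0.54 to 0.089 and Xrcc6 from -1.08 to 0.0023 in ibrutinib. Over all 41 members, 20 turned sign in at least 1 alternative in DMSO and 12 in ibrutinib.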
